A study of Mus musculus with 59 samples.

Results

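Cabp7, Slc6a15 and Sema7a were the 3 autosomal genes, with the potassium channel gene Kcnh3 set apart, whose read counts differed between SCA1 model mice and wildtype mice in the same direction in each of 5 dissected brain regions, out of 54232 genes counted. Spinocerebellar ataxia type 1 (SCA1) is caused by expansion of the polyglutamine tract of ataxin-1 (ATXN1), a nuclear protein that binds the transcriptional repressor Capicua (CIC). The series compared bulk polyA RNA from cerebellum, brainstem, hippocampus, striatum and cortex of 10-week-old C57BL/6 mice of 3 genotypes. Wildtype (WT) mice carried 2 normal Atxn1 alleles, 154Q mice (Atxn1_154Q/2Q) carried 1 knock-in allele with the expanded tract, and 154Q-AXH mice (Atxn1_154Q[V591A;S602D]/2Q) carried the expanded allele with 2 further substitutions in its AXH domain, V591A and S602D, which are named by their positions 591 and 602 in the human protein and were made to prevent CIC from binding. Both mutants kept 1 normal 2Q allele, and the AXH change was introduced by CRISPR editing of embryos that carried the 154Q allele, with founders then backcrossed. The expanded protein was made from the Atxn1 locus itself, so no promoter limited it to a cell type.

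Each group held 4 libraries, apart from 154Q-AXH brainstem with 3, and the 59 libraries came from 12 mice. The genes were chosen on the 154Q against WT contrast, so their values in that contrast are given as a description without a test, while 154Q-AXH differences and WT regional levels were no criterion of the choice. They are not independent of it, since the contrasts share WT or 154Q libraries, and the 154Q-AXH libraries were in the same fits and took part in the spread behind the calls (with fits of WT and 154Q alone, 1 of the 3 genes stayed called in all 5 regions). Of 17540 genes tested in all 5 regions, 5 (0.0285%) were called at an adjusted p under 0.05 in one direction throughout. The other two were Kcnh3 and Pcdh11x, a protocadherin gene on the X chromosome.

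The 3 genes have unrelated products. Cabp7, also called calneuron 2, is a calmodulin-like EF-hand calcium sensor of the Golgi that inhibits phosphatidylinositol 4-kinase IIIβ at resting calcium. Slc6a15 (B0AT2) is a sodium-dependent transporter that carries branched-chain amino acids and proline into neurons. Sema7a is a semaphorin held in the membrane by a glycolipid anchor, and it signals through β1 integrins and plexin C1 in axon growth and synapse formation.

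In GRCm38 coordinates, Sema7a (ENSMUSG00000038264.8) spanned chr9:57940112-57962865 on the plus strand, Slc6a15 (ENSMUSG00000019894.14) chr10:103367783-103419377 on the plus strand and Cabp7 (ENSMUSG00000009075.2) chr11:4736892-4746778 on the minus strand. All 3 are protein-coding genes on different chromosomes, so they share no neighbourhood. The exons of Cabp7 overlapped those of Zmat5 on the opposite strand over 338 bases, or 12.9% of its exon length, and the counts used took no account of strand. Zmat5 itself was not called in any contrast in any region.

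The promoters of 2 of the 3 genes, Sema7a and Cabp7, were held in the RefSeq table for GRCm38.p6. They are shown because both genes were lower than WT in the contrast that chose them, and because CIC represses from a short DNA word. A link between promoter content and the differences was not tested. The Sema7a window was chr9:57939862-57940161 on the plus strand, and the Cabp7 window was chr11:4747130-4747429 on the minus strand, each running from 250 bases before to 50 bases after the RefSeq start. RefSeq's Cabp7 start lies outside the gene's span above, which is from GENCODE. Capitals mark the GC box GGGCGG in either gene and the RFX half-site GTTGCC in Sema7a.
Sema7a: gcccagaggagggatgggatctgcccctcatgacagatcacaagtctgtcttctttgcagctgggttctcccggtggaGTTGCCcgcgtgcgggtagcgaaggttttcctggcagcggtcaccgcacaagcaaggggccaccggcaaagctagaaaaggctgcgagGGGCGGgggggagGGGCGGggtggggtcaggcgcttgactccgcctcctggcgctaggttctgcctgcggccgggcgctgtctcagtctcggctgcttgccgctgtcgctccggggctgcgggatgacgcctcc
Cabp7: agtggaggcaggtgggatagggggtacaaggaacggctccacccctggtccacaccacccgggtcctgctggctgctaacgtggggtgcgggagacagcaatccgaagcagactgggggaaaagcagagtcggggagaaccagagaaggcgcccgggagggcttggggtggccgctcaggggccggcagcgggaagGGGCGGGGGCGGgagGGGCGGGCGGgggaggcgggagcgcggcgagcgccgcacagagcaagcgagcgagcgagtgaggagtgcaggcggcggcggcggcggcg

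Both windows were rich in G and C. Sema7a held 67.3% GC and 23 CpG, and Cabp7 held 73% GC and 30 CpG, against medians of 53% and 7 over 32544 promoters. The CIC octamers TGAATGAA, TGAATGGA, TCAATGAA and TCAATGGA, searched on both strands, were absent from both windows and present in 3.77% of all promoters. The GC box was found in both and in 35.9% of all promoters, with overlapping copies in Cabp7. The RFX half-site (GTTGCC or GTTACC) was found once in Sema7a, none in Cabp7, and 18.5% of all promoters held it. The cAMP response element TGACGTCA was in neither window (1.80% of promoters), and its shorter form TGACG was in Sema7a alone (20.9%). Slc6a15 was not matched.

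Library depth ran from 28058359 to 112343574 counted read pairs, with the striatal (28058359 to 54719126) and cortical (34530406 to 46174761) libraries shallower than those of the other three regions, which all held at least 64416717. Region marker lists were highest in their own region for 10 of 10 genes in cerebellum, brainstem, hippocampus and striatum and for 7 of 9 in cortex. The 154Q mice all had numbers of the lower series (154Q-76, 154Q-75, 154Q-71, 154Q-69) and the 154Q-AXH mice of the higher (AXH-218, AXH-217, AXH-209, AXH-207), while WT mice came from both (WT-221, WT-220, WT-77, WT-70), so a difference between the mutants and a difference between the number series cannot be told apart without the WT mice. All libraries of 154Q-75 and AXH-217 held high Xist and little Ddx3y, the pattern of female tissue. In cerebellum Xist stood at normalised read counts of 1153 and 1040, and Ddx3y at 0.351 and 0.546. Apart from the libraries named next, all others held little Xist and high Ddx3y. The sexes were thus not balanced between WT and the mutants, and sex was in no fit. Some libraries stood apart from their labels. Hippocampal 154Q-76 expressed 10 brainstem markers at 56.5% (median) of what WT brainstem held, while no other hippocampal library exceeded 0.353%, and it held Xist at a normalised read count of 180 together with Ddx3y at 51.8. The cortical library labelled WT-221 carried Xist at a normalised read count of 483 and Ddx3y at 0.921, whereas that animal's other libraries had Xist at most at 5.99 and Ddx3y at least at 73.0. For the cortical libraries labelled 154Q-76 and AXH-207, the deposited names and the labels were crossed, and the labels were followed here. Results that these libraries touch are given with and without them.

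Cabp7 was lower in 154Q than in WT tissue in every region, with differences that ran from −16.8% in cerebellum to −57.2% in striatum and −57.3% in cortex. Values are normalised read counts (CPM, counts scaled to a fixed library size, with trimmed-mean scaling of the libraries of 1 region), listed in ascending order of mouse number. Cerebellar Cabp7 stood at 71.2, 64.3, 55.4 and 59.8 CPM in WT, at 54.0, 52.1, 50.6 and 51.9 in 154Q and at 61.7, 55.7, 51.9 and 55.4 in 154Q-AXH libraries. All 154Q libraries lay under all WT libraries, and the 154Q-AXH libraries overlapped both groups. In brainstem the values were 115, 117, 109 and 109.6 CPM in WT, 91.2, 89.7, 85.2 and 95.5 in 154Q and 93.9, 104 and 106 in 154Q-AXH libraries. The 154Q-AXH libraries lay under every WT library there, and the lowest of them fell within the 154Q range.

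Hippocampal Cabp7 was at 144, 176, 170.4 and 187 CPM in WT, 82.4, 97.0, 107 and 98.7 in 154Q and 109, 121, 104 and 137 in 154Q-AXH tissue. Neither mutant reached the lowest WT library, and the 154Q-AXH values ran from inside the 154Q range to near the WT range. In striatum, where the gene was scarce, WT libraries held 13.7, 13.8, 13.7 and 15.9 CPM, 154Q libraries 6.60, 6.40, 6.03 and 5.35 and 154Q-AXH libraries 7.70, 7.11, 7.12 and 6.70. The 3 striatal groups were fully separate, in the order 154Q, 154Q-AXH, WT. Cortical Cabp7 was at 37.2, 31.2, 36.7 and 26.3 CPM in WT, 10.6, 16.9, 16.7 and 11.7 in 154Q and 28.5, 25.0, 10.6 and 30.2 in 154Q-AXH libraries. The third 154Q-AXH library was as low as the lowest 154Q library, and the others overlapped the WT range or came close to it.

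On the log2 scale the 154Q minus WT differences of Cabp7 were −0.26 (SE 0.069) in cerebellum, −0.31 (0.047) in brainstem, −0.82 (0.105) in hippocampus, −1.22 (0.093) in striatum and −1.23 (0.245) in cortex. The cortical value depended on the crossed pair of libraries: it was −0.85 with their labels exchanged and −1.15 without them, and it was −1.32 without the library labelled WT-221. Without hippocampal 154Q-76 the hippocampal value was −0.84.

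Slc6a15 was the one gene of the 3 that was higher in the mutants, by 13.5% (brainstem) to 58.6% (striatum) in 154Q tissue. In cerebellum it was at 95.9, 93.7, 112 and 107 CPM in WT, 116, 119, 119 and 126 in 154Q and 123, 122, 118 and 125 in 154Q-AXH libraries. Brainstem libraries held 90.9, 93.1, 95.5 and 94.5 CPM in WT, 105, 107, 100.5 and 112 in 154Q and 104, 104 and 107 in 154Q-AXH tissue. In both hindbrain regions every mutant library exceeded every WT library, and the mutants overlapped.

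Hippocampal Slc6a15 stood at 81.6, 83.8, 91.4 and 87.3 CPM in WT, 123, 127, 136 and 115 in 154Q and 127, 132, 138 and 154 in 154Q-AXH libraries. Striatal values were 56.5, 56.7, 51.5 and 54.8 CPM in WT, 83.4, 83.2, 91.2 and 90.4 in 154Q and 76.8, 78.6, 67.6 and 81.2 in 154Q-AXH libraries. Hippocampal mutants were apart from WT and overlapped each other, whereas striatum was the region where the 154Q-AXH libraries lay wholly between the WT and 154Q libraries. Cortical values were 52.1, 57.1, 64.7 and 63.6 CPM in WT, 81.8, 85.4, 93.2 and 91.7 in 154Q and 96.7, 88.2, 87.2 and 89.8 in 154Q-AXH libraries, again with the mutants apart from WT and overlapping each other.

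The 154Q minus WT differences of Slc6a15 were 0.23 (SE 0.053) in cerebellum, 0.18 (0.036) in brainstem, 0.54 (0.071) in hippocampus, 0.67 (0.067) in striatum and 0.57 (0.067) in cortex on the log2 scale. The largest was 3.65 times the smallest. Without hippocampal 154Q-76 the hippocampal value was 0.57, and the cortical value was 0.60 without WT-221 and 0.55 without the crossed pair.

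Sema7a was lower in 154Q than in WT tissue, with differences from −20.1% in brainstem to −43.0% in striatum. Cerebellar libraries held 254, 234, 261 and 252 CPM in WT, 192, 181, 188 and 189 in 154Q and 193, 230.4, 198 and 223 in 154Q-AXH tissue. The 3 cerebellar groups did not overlap, with 154Q-AXH in between. Brainstem values were 183, 185, 186 and 192 CPM in WT, 154, 139, 146 and 156 in 154Q and 139, 163 and 159.7 in 154Q-AXH libraries, so both mutants were apart from WT and overlapped each other.

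In hippocampus Sema7a was at 152, 133, 145 and 156 CPM in WT, 88.7, 85.3, 97.1 and 117 in 154Q and 94.9, 99.7, 96.5 and 103 in 154Q-AXH libraries. The highest 154Q library was the one that held brainstem markers. Striatal libraries were at 282, 369, 199 and 315 CPM in WT, 167, 179.6, 139.7 and 179 in 154Q and 177, 156, 124 and 195 in 154Q-AXH tissue. WT-220 was the lowest WT library there and lay only just above the highest 154Q-AXH library. Cortical libraries held 307, 239, 253 and 285 CPM in WT, 148, 163, 158 and 191 in 154Q and 165, 168, 205 and 172 in 154Q-AXH tissue, with all mutant libraries under all WT libraries.

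The log2 differences of Sema7a, 154Q minus WT, were −0.42 (SE 0.055) in cerebellum, −0.32 (0.052) in brainstem, −0.60 (0.089) in hippocampus, −0.81 (0.176) in striatum and −0.72 (0.092) in cortex. Without hippocampal 154Q-76 the hippocampal value was −0.71, and the cortical value was −0.69 without WT-221 and −0.79 without the crossed pair.

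**Figure D1:**
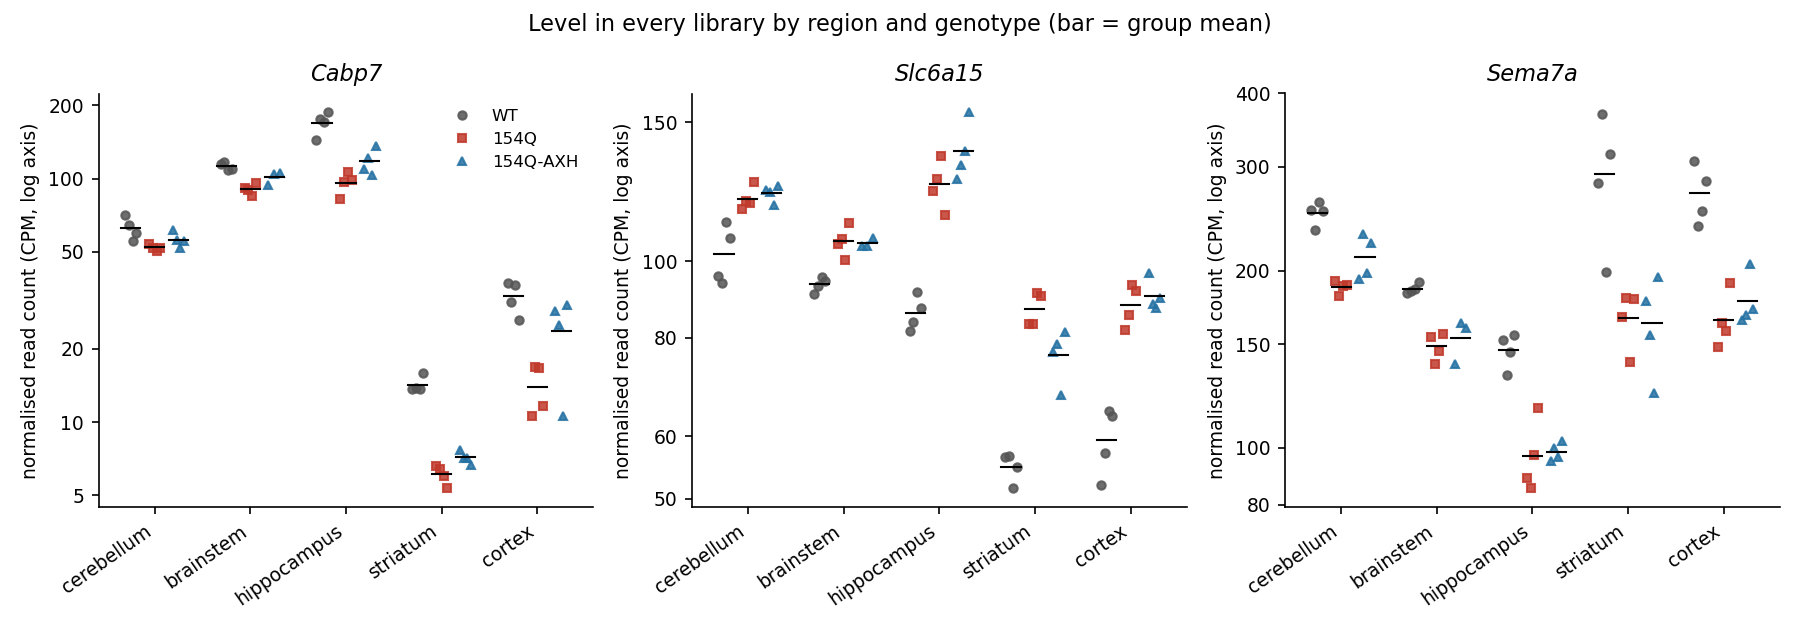
Normalised read count (CPM, log axis) of each gene (1 panel a gene) by region, 1 point per library, for WT (grey), 154Q (red) and 154Q-AXH (blue) mice, with a bar at the group mean. The 154Q and WT libraries do not overlap for any gene in any region, with Slc6a15 higher and the other two genes lower in the mutants.

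For the 3 genes together, the 154Q and WT ranges were apart in 15 of 15 gene-region pairs, where 12.2% of all gene-region pairs were apart, and the called shares of all genes were 5.22% in cerebellum, 0.538% in brainstem, 5.91% in hippocampus, 5.69% in striatum and 11.1% in cortex. The genes were picked on this contrast, so nothing is read from the count. For each of the 3 genes, and in each mutant, cerebellum and brainstem gave the smallest differences from WT. In bulk tissue, fewer cells of a type and less RNA per cell cannot be told apart.

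The threshold of the rule lay close to several genes. The largest adjusted p over the 5 regions was 0.0197 for Sema7a (striatum), 0.039 for Cabp7 (cerebellum) and 0.049 for Slc6a15 (brainstem), next to 0.0084 for Kcnh3 and 0.0333 for Pcdh11x (both brainstem). Just outside stood Zmynd8, a chromatin reader, with 0.0574 in striatum at a log2 difference of −0.47. In all, 51 autosomal genes were called in one direction in 4 regions. Kcnh3 differed by −1.90, −1.57, −0.90, −0.65 and −0.48 log2 units in cerebellum, brainstem, hippocampus, striatum and cortex, so its largest differences were in the hindbrain, where WT tissue held only 1.98 and 1.02 CPM. Pcdh11x was higher, by 0.56, 0.26, 1.06, 0.65 and 0.58 in the same order.

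**Figure D2:**
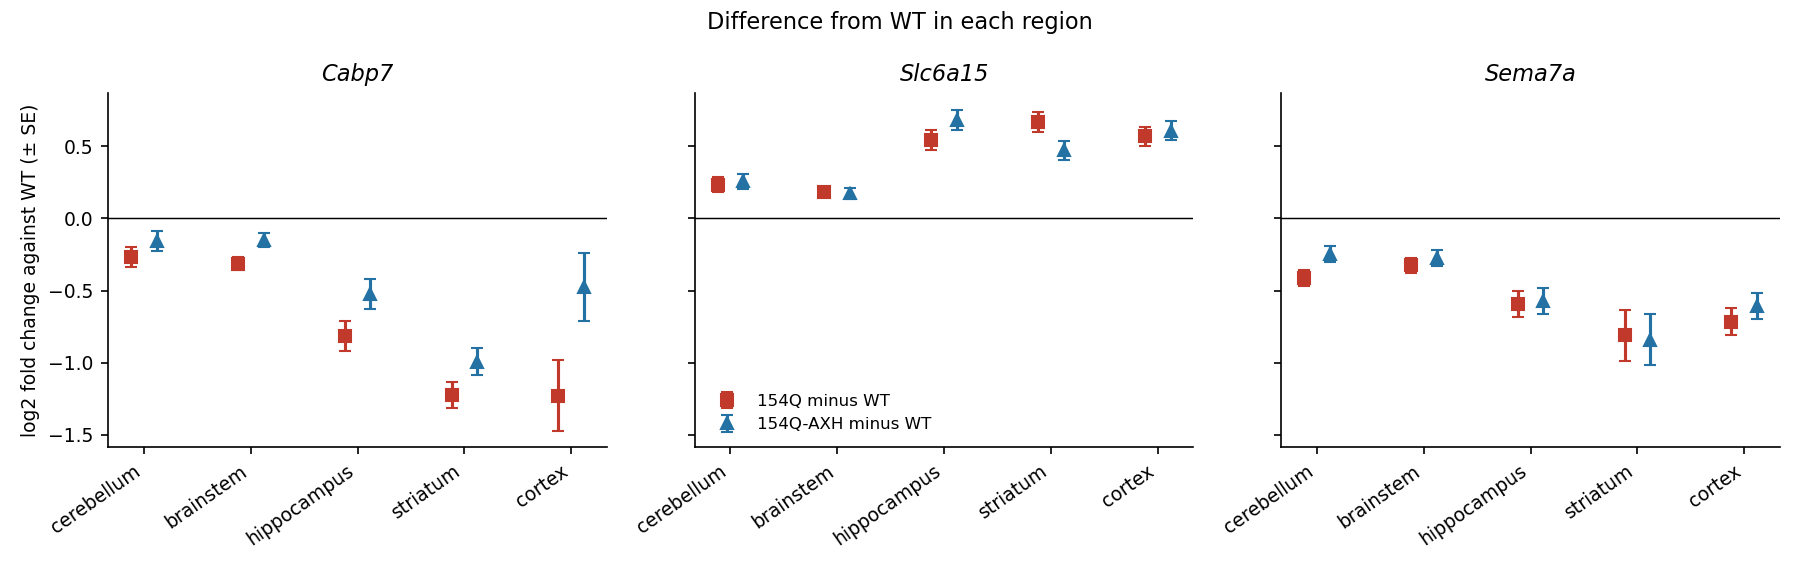
Log2 fold change against WT with its SE for each gene (1 panel a gene) and region, in 154Q (red) and 154Q-AXH (blue) mice. The 154Q-AXH estimates have the sign of the 154Q estimates in all 15 gene-region pairs, and the smallest sit in cerebellum and brainstem.

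The 154Q-AXH mice address what remains when the expanded protein cannot bind CIC. Tested with edgeR's quasi-likelihood test and Benjamini-Hochberg adjustment over all genes of a region, 10 of the 15 gene-region pairs were called in 154Q-AXH against WT, where 2.30% of all pairs were called (2.21% of genes in cerebellum, 0.0138% in brainstem, 1.30% in hippocampus, 1.35% in striatum and 7.15% in cortex). This contrast shares its WT libraries with the one that chose the genes. The libraries of the 2 groups did not overlap in 13 of 15 pairs, against 10.3% of all gene-region pairs. In the brainstem, where only 3 genes were called among all tested, none of the 3 genes was.

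Slc6a15 rose in 154Q-AXH mice in 4 of 5 regions. The log2 difference was 0.26 (adjusted p = 0.0209) in cerebellum, 0.68 (0.000974) in hippocampus, 0.47 (0.00438) in striatum and 0.61 (7.63e-05) in cortex by edgeR. In brainstem it was 0.17 with an adjusted p of 0.312. The hippocampal and cortical calls held under every alternative run (cortex 0.64 without WT-221 and 0.57 without the crossed pair). The striatal call was lost with only those WT controls whose numbers were in the mutant's series (adjusted p = 0.294), where 0 striatal genes were called. The cerebellar call was lost in 4 of 18 alternatives, 3 of which left out AXH-207, AXH-209 or AXH-218 (adjusted p from 0.0614 to 0.0801).

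Sema7a fell in the same 4 regions. The log2 differences were −0.25 (edgeR adjusted p = 0.0324) in cerebellum, −0.57 (0.00962) in hippocampus, −0.84 (0.0361) in striatum and −0.61 (0.000866) in cortex, and −0.28 in brainstem did not pass (0.219). Again the hippocampal and cortical calls held throughout (cortex −0.58 without WT-221 and −0.57 without the crossed pair). The cerebellar call was lost in 7 of 18 alternatives (6 of them without 1 library, adjusted p from 0.0524 to 0.121: WT-70, WT-220 or WT-221, 154Q-76, or AXH-207 or AXH-217). The striatal call was lost in 12 of 18 (9 of them without 1 library, from 0.0618 to 0.135: WT-70, WT-77 or WT-221, 154Q-69, 154Q-71 or 154Q-76, or AXH-207, AXH-209 or AXH-217).

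Cabp7 fell in hippocampus (−0.53, edgeR adjusted p = 0.0315) and striatum (−0.99, 0.000304). In cerebellum (−0.16, 0.292), brainstem (−0.15, 0.635) and cortex (−0.48, 0.274) it did not pass. The hippocampal call was lost in 7 of 18 alternatives, 6 of them without 1 library (WT-77, WT-220 or WT-221, or AXH-207, AXH-209 or AXH-217, adjusted p from 0.0657 to 0.0975). The striatal call was lost with only the WT controls of the mutant's number series (0.11), where 0 striatal genes were called. In cortex the value was −0.77 with the crossed labels exchanged (adjusted p = 0.158) and −0.58 with both libraries left out (0.282), and −0.57 without the library labelled WT-221 (0.249). Without AXH-217, the lowest 154Q-AXH library, it was −0.23 (0.458).

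Set directly against each other, the 2 mutants did not differ in any of the 15 gene-region pairs at an adjusted p under 0.05 (edgeR, and also 0 by DESeq2), where 0.00692% of all pairs and 0.0335% of cerebellar genes were called and no gene in the other regions. This contrast shares its 154Q libraries with the one that chose the genes. Choosing genes whose 154Q values lay far from WT by itself favours differences toward WT here. The shares over all pairs are thus not a like comparison. At an unadjusted p under 0.05 the edgeR test passed 6 of 15 pairs, of which 4 were Cabp7, where 6.87% of all pairs passed. The difference was positive, that is 154Q-AXH higher, in 12 of 15 pairs (5 of Cabp7, 4 of Sema7a and 3 of Slc6a15). Higher means toward WT for Cabp7 and Sema7a but away from WT for Slc6a15. The share of positive differences over all genes was not counted. The libraries of the 2 mutants did not overlap in 3 of 15 pairs (Cabp7 and Slc6a15 in striatum and Sema7a in cerebellum), against 5.02% of all pairs.

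Cabp7 was higher in 154Q-AXH than in 154Q mice in all 5 regions, none passing the adjusted threshold. The log2 differences, with 95% intervals that cover the error of each pair alone, were 0.11 (−0.03 to 0.24) in cerebellum, 0.16 (0.06 to 0.26) in brainstem, 0.29 (0.09 to 0.50) in hippocampus, 0.23 (0.04 to 0.42) in striatum and 0.75 (0.26 to 1.24) in cortex. The cortical value moved to 0.08 with the crossed labels exchanged and to 0.57 without both libraries. Without hippocampal 154Q-76 the hippocampal value was 0.31. With the number series as a covariate, which rests on the WT mice alone, the values were 0.34 in cerebellum, 0.25 in brainstem, 0.13 in hippocampus, 0.13 in striatum and 0.87 in cortex.

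For Slc6a15 the mutants were fully apart in striatum and overlapped in the other regions. The 154Q-AXH minus 154Q differences were 0.02 (−0.08 to 0.13) in cerebellum, −0.01 (−0.09 to 0.07) in brainstem, 0.14 (0.00 to 0.28) in hippocampus, −0.19 (−0.33 to −0.06) in striatum and 0.04 (−0.09 to 0.17) in cortex. The hippocampal interval began just above 0, yet edgeR's test of that pair gave an unadjusted p of 0.068. Sema7a gave 0.17 (0.06 to 0.28) in cerebellum, 0.05 (−0.06 to 0.16) in brainstem, 0.02 (−0.15 to 0.20) in hippocampus, −0.03 (−0.37 to 0.31) in striatum and 0.11 (−0.07 to 0.29) in cortex. The intervals of Sema7a in striatum were the widest of these 10, so a difference of the size seen in cerebellum was not detectable there. Without the crossed pair the cortical values were 0.22 for Sema7a and 0.03 for Slc6a15. Without hippocampal 154Q-76 the hippocampal values were 0.13 for Sema7a and 0.11 for Slc6a15.

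**Figure D3:**
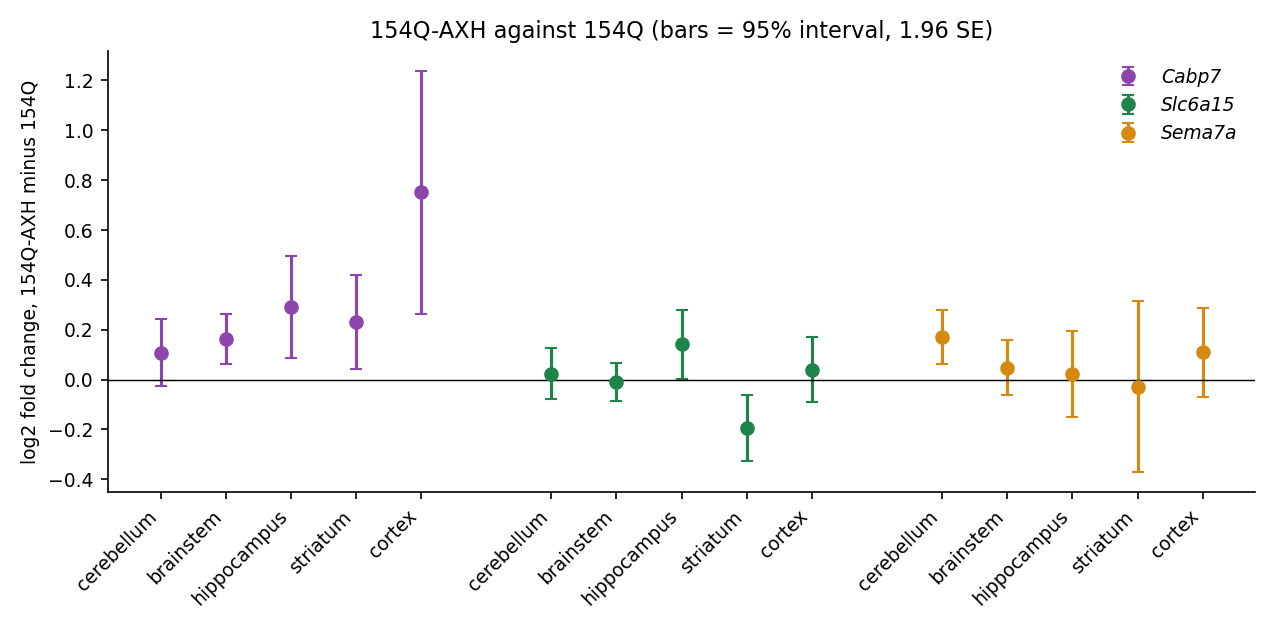
Log2 fold change of 154Q-AXH against 154Q mice for each gene (colour) and region, with bars for the 95% interval of each pair. The 5 Cabp7 values lie above 0, up to 0.75 in cortex, while those of Slc6a15 and Sema7a lie on both sides of it between −0.19 and 0.17.

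Whether the 154Q-AXH difference from WT varied between regions was tested in 1 model of all 59 libraries. For Slc6a15 it did (edgeR quasi-likelihood F test of equal differences, F = 9.79, adjusted p = 0.00196, where 1.33% of all genes were called), from 0.17 in brainstem to 0.68 in hippocampus. The call held without the libraries that stood apart (0.0018) and without any 1 mouse (0.00189 to 0.0131). For Cabp7 (0.133) and Sema7a (0.11) the test did not pass, and it passed for Cabp7 only without AXH-217 (0.0107) and for Sema7a only without WT-220 (0.0178). The difference between the mutants did not vary detectably by region for Cabp7 (0.547), Slc6a15 (0.32) or Sema7a (0.972), where 0.0823% of all genes were called.

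The normal regional level of the 3 genes followed 3 different orders, taken from the 20 WT libraries scaled together. Levels between genes are compared per kilobase of exon. Sema7a was the most abundant outside hippocampus, where Cabp7 was higher, at 43.6 to 88.7 CPM per kilobase and between the 95.6 and 98.0 percentiles of 22200 genes. Cabp7 ranged from 5.45 to 63.3 CPM per kilobase (percentiles 67.1 to 97.4), and Slc6a15 from 7.11 to 12.7 (71.9 to 82.3). All 3 levels differed between WT regions by edgeR's F test (adjusted p = 2.45e-16 for Cabp7, 1.54e-09 for Slc6a15 and 4.7e-07 for Sema7a), as did 91.6% of all genes.

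Cabp7 was highest in hippocampus, at 166 ± 18.4 CPM (SD, n = 4), then brainstem (109 ± 4.28), cerebellum (60.2 ± 5.64), cortex (33.0 ± 5.19) and striatum (14.3 ± 0.981). The ends of this order differed 11.6-fold. Each neighbour differed from the next (edgeR adjusted p from 1.19e-07 to 1.47e-05). Over all genes, 60.7% differed between hippocampus and brainstem, 65.4% between brainstem and cerebellum, 70.3% between cerebellum and cortex and 10.7% between cortex and striatum.

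Slc6a15 was highest in cerebellum (98.4 ± 10.3 CPM, SD, n = 4), followed by brainstem (91.0 ± 1.98), hippocampus (84.4 ± 4.76), cortex (59.6 ± 6.09) and striatum (55.1 ± 1.89), a span of 1.78-fold. Among neighbours, the step from hippocampus to cortex passed (edgeR adjusted p = 9.5e-06, with 55.4% of all genes called). Cerebellum and brainstem (0.182), brainstem and hippocampus (0.204) and cortex and striatum (0.351) did not differ beyond their spread. Cerebellum and hippocampus, 2 steps apart, did (0.0117, with 63.6% of all genes called), though not without WT-221 (0.11).

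Sema7a was highest in striatum (292 ± 69.4 CPM, SD, n = 4) and cortex (272 ± 31.2), then cerebellum (241 ± 15.3), brainstem (181 ± 2.81) and hippocampus (144 ± 10.6), a span of 2.04-fold. Striatum and cortex (edgeR adjusted p = 0.619) and cortex and cerebellum (0.205) were not separated, whereas cerebellum and brainstem (0.00527) and brainstem and hippocampus (0.0207) were. Without WT-221 the step from cerebellum to brainstem had an adjusted p of 0.0544. Striatum against cerebellum was at 0.0439 (71.8% of all genes called), and at 0.0575 with the mouse as a replicate block.

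**Figure D4:**
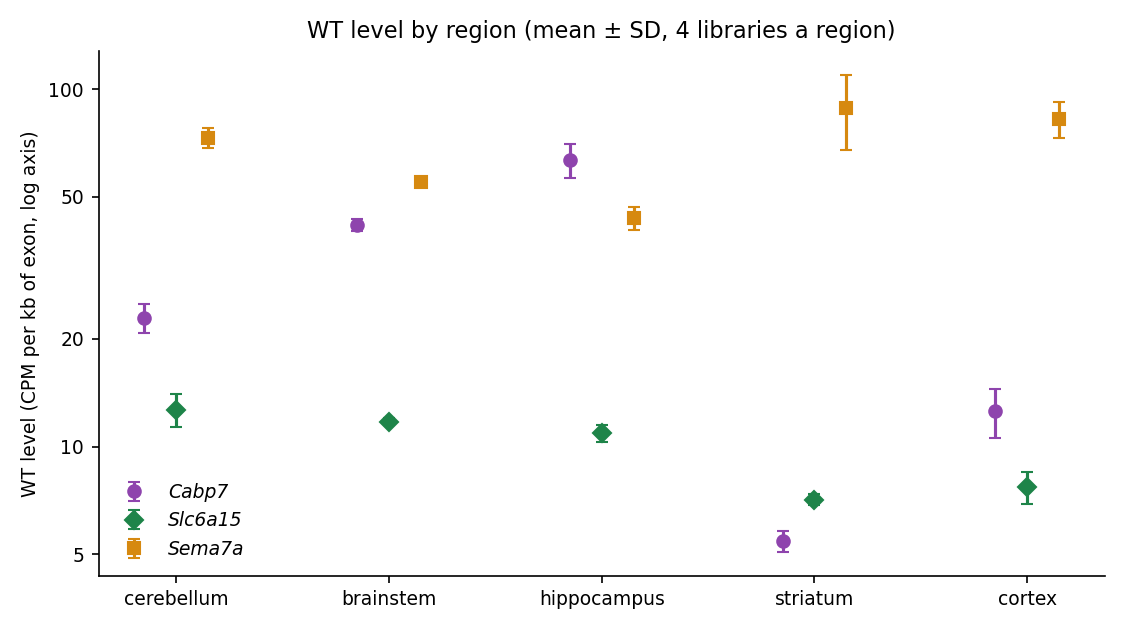
Mean level of each gene in WT tissue (CPM per kilobase of exon, log axis) by region, with SD bars over 4 libraries. Cabp7 spans 11.6-fold from striatum to hippocampus, against 1.78-fold for Slc6a15 and 2.04-fold for Sema7a.

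The regional orders and the sizes of the mutant differences can be set side by side. In 154Q mice Cabp7 differed most in striatum and cortex, its lowest WT regions, though with the crossed labels exchanged cortex (−0.85) stood next to hippocampus (−0.82). In 154Q-AXH mice it differed most in striatum (−0.99), then in hippocampus (−0.53), its highest WT region, and cortex (−0.48). The order of the last pair was not settled. Cortex stood at −0.77 with the crossed labels exchanged, −0.58 without both libraries and −0.57 without WT-221, but at −0.23 without AXH-217. Sema7a differed most in striatum and cortex, its highest WT regions, in both mutants, but hippocampus, its lowest, stood close to cortex. In 154Q mice hippocampus was at −0.71 without 154Q-76, and cortex at −0.72 (−0.69 without WT-221, −0.79 without the crossed pair). In 154Q-AXH mice hippocampus was at −0.57, and cortex at −0.61 (−0.57 without the crossed pair, −0.56 with the labels exchanged). Slc6a15 differed most in striatum, cortex and hippocampus, and the span between its regions was 1.80-fold in WT, 1.37-fold in 154Q and 1.78-fold in 154Q-AXH tissue when all 59 libraries were scaled together. For Cabp7 the span was 11.6-fold in WT, 15-fold in 154Q and 16.1-fold in 154Q-AXH tissue.

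Some cell-type markers also moved, in regions where the 3 genes differed much and in regions where they differed little. Of all genes, 5.22% were called in 154Q cerebellum, 0.538% in brainstem, 5.91% in hippocampus, 5.69% in striatum and 11.1% in cortex. In 154Q-AXH cortex 7.15% were called. In cortex, 6 of 8 astrocyte markers were called lower in 154Q mice, and their summed level ran from 1920 to 2108 CPM in 154Q, 1948 to 2195 in 154Q-AXH (1 of 8 called) and 2278 to 2446 in WT libraries. In striatum 3 of 8 astrocyte markers were called lower (1736 to 1843 CPM in 154Q, 1831 to 2087 in 154Q-AXH, 2141 to 2391 in WT). In cerebellum 2 of 8 were called lower (4238 to 4470 CPM in 154Q, 4529 to 4777 in 154Q-AXH, 4827 to 5240 in WT). In brainstem it was also 2 of 8 (3230 to 3520 in 154Q, 3349 to 3779 in 154Q-AXH, 3642 to 4097 in WT). Hippocampus, where all 3 genes differed, had 0 of 8 called in either mutant (1917 to 2814 in 154Q, 2074 to 2275 in 154Q-AXH, 2272 to 2522 in WT). The 154Q-AXH and WT ranges there overlapped at their ends only. The 154Q group there includes the library with brainstem markers, and WT brainstem held more of the astrocyte markers than WT hippocampus. The part of that library in the count was not tested. Of 8 microglial markers 0 were called in any region in either mutant. Of 6 endothelial markers 1 was called, lower in 154Q striatum. Cerebellar region markers summed to 8031 to 8803 CPM in WT, 7098 to 7350 in 154Q and 7878 to 8135 in 154Q-AXH cerebellum, with 3 of 10 called lower in 154Q mice. Striatal oligodendrocyte markers summed to 10230 to 16940 CPM in WT, 7444 to 8973 in 154Q and 6842 to 16430 in 154Q-AXH libraries, with 0 of 9 called. The 10 striatal region markers summed to 1864 to 5612 CPM in WT, 743 to 1283 in 154Q and 639 to 3555 in 154Q-AXH libraries, with 0 of 10 called. In 154Q cortex 7 of 10 neuronal markers were called, 2 of them higher, and 4 of 9 cortical region markers, 1 of them higher (summed level 666 to 772 CPM in WT, 479 to 561 in 154Q and 471 to 554 in 154Q-AXH libraries). In 154Q-AXH cortex the counts were 3 of 10, 2 of them higher, and 5 of 9, 0 of them higher. Elsewhere in 154Q mice, neuronal markers were called in cerebellum (2, 1 higher), brainstem (1, lower) and hippocampus (3, 2 higher), with 0 in striatum. In 154Q-AXH mice 0 were called in those regions. Hippocampal region markers summed to 766 to 1131 CPM in WT, 497 to 741 in 154Q and 720.3 to 1189 in 154Q-AXH libraries of hippocampus, with 2 of 10 called lower in 154Q mice. The part of these shifts in the values of the 3 genes was not tested.

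Across the 59 libraries, with the mean of each region taken out of log2 CPM, Cabp7 and Sema7a went together (Pearson r = 0.69) and both went against Slc6a15 (r = −0.71 and −0.77). These values carry the genotype differences that chose the genes. With the mean of each region and genotype taken out instead, r was −0.12, 0.10 and 0.20 in the same order. The libraries share mice and scaling, so these are descriptions.

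**Figure D5:**
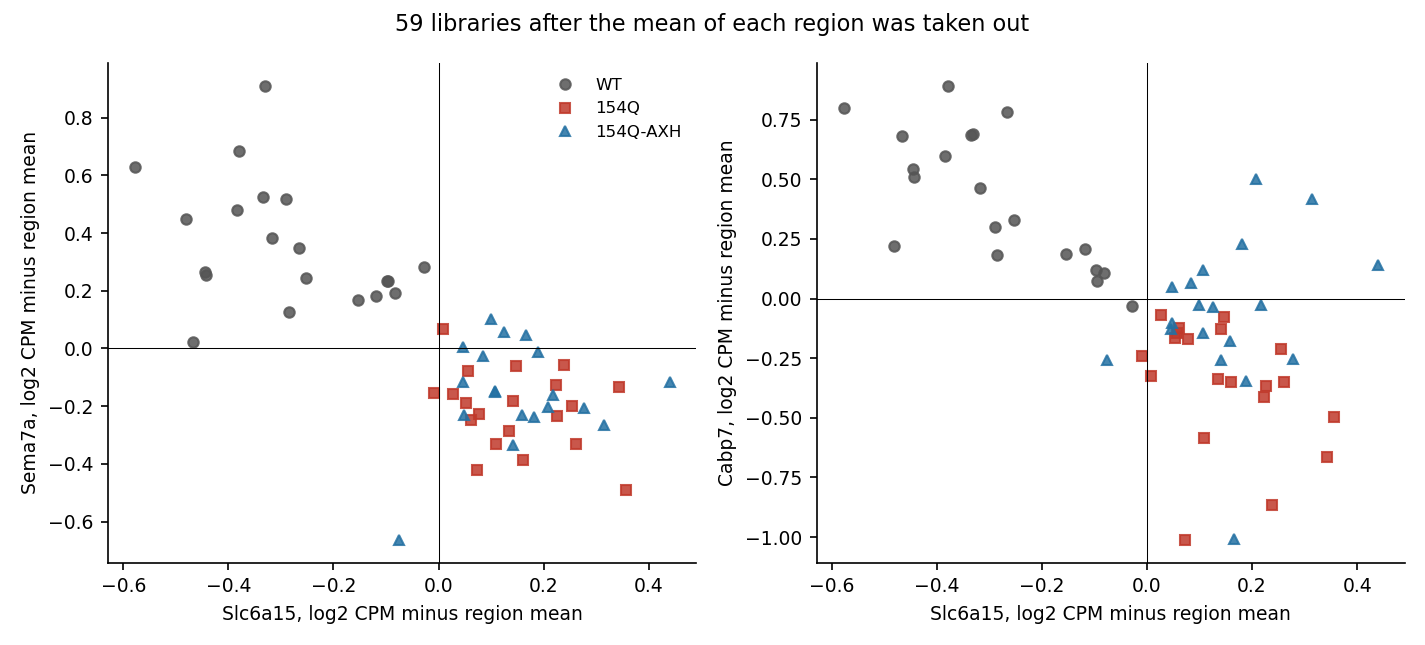
Deviation of each of 59 libraries from its region's mean (log2 CPM), Slc6a15 on the horizontal axes and Sema7a (left) or Cabp7 (right) on the vertical axes, with genotypes by colour and shape. WT libraries sit at −0.58 to −0.03 along Slc6a15, 154Q libraries at −0.01 to 0.36 and 154Q-AXH libraries at −0.08 to 0.44, so the WT and 154Q-AXH ranges overlap at their ends only.

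The autosomal genes whose pattern over the 59 libraries, with region means removed, was most like each gene were taken from 16908 genes. For Sema7a they were Zmynd8 (r = 0.91), the potassium channel Kcnc1 (0.90) and the kinase Camkk2 (0.89). With genotype means also removed these stayed at 0.65, 0.85 and 0.60. Slc6a15 was most like the membrane glycoprotein gene Cd200 (0.87), Hp1bp3 (0.87) and Sfmbt2 (0.86), which stood at 0.54, 0.55 and 0.12 with genotype removed. Cabp7 was most like Rasd1 (0.81), Plk5 (0.80) and Gpd1 (0.79), at 0.44, 0.14 and 0.09 with genotype removed.

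Of the genes likest Cabp7, the polo-like kinase gene Plk5 differed by −2.40, −2.67 and −2.69 log2 units in hippocampus, striatum and cortex of 154Q mice, and by −1.47, −2.22 and −2.69 in 154Q-AXH mice. Rasd1, a Ras-like gene induced by dexamethasone, gave −1.65, −1.50 and −1.50 in 154Q and −1.30, −0.83 and −0.96 in 154Q-AXH tissue, the latter pair not past the threshold. Gpd1, a glycerol-3-phosphate dehydrogenase gene, gave −0.48, −1.15 and −0.98 in 154Q and −0.39, −0.86 and −0.82 in 154Q-AXH tissue, with hippocampal 154Q-AXH not past the threshold.

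Relatives and partners of the 3 genes were read from lists, as gene-region pairs over the 5 regions. Of all pairs, 2.16% were called higher and 3.37% lower in 154Q against WT, and 0.847% higher and 1.45% lower in 154Q-AXH against WT (edgeR). Of 101 pairs of neuronal and calmodulin-like calcium sensors other than Cabp7, 2 were higher and 22 lower in 154Q mice, and 0 and 9 in 154Q-AXH mice. Their median log2 difference in 154Q mice ran from −0.06 in cerebellum to −0.21 in striatum, against −0.01 to 0.02 over all genes.

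Hpcal1, a visinin-like calcium sensor, fell in 154Q cerebellum (−0.48, SE 0.041, edgeR adjusted p = 1.12e-05), striatum (−0.73) and cortex (−0.72), and in 154Q-AXH cerebellum (−0.23). Kcnip4 and Kcnip1, subunits of A-type potassium channels, fell in cerebellum (−0.42 and −0.34 in 154Q, −0.21 and −0.22 in 154Q-AXH mice). Kcnip3 fell in striatum and cortex (−0.60 and −0.62 in 154Q, −0.47 and −0.48 in 154Q-AXH mice). Caln1, the closest relative of Cabp7, was not called in any region in either mutant, nor was Pi4kb, which encodes phosphatidylinositol 4-kinase IIIβ.

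Among 72 pairs of SLC6 transporters other than Slc6a15, none was higher in either mutant, while 7 were lower in 154Q and 3 in 154Q-AXH mice. Slc6a6, a taurine transporter, fell in 154Q cerebellum by 0.31, and the vesicular transporter Slc6a17 in 154Q cortex by 0.17. The noradrenaline transporter Slc6a2 fell in cerebellum (−3.82 and −3.35) from a WT level of only 0.886 CPM. None of 80 pairs of genes that carry or break down branched-chain amino acids was called in either direction in either mutant.

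Of 95 pairs of other semaphorins, 4 were higher and 1 lower in 154Q mice, and 2 and 2 in 154Q-AXH mice. The secreted Sema3a rose in cerebellum (0.29 in 154Q, 0.22 in 154Q-AXH) and striatum (0.49 and 0.47), and Sema4a fell in cortex (−0.48 and −0.55). In 154Q mice alone Sema6c passed in cortex (0.36) and Sema4d in hippocampus (0.26), and the difference between the mutants was not tested for them. The Sema4d value includes the library that held brainstem markers, and WT brainstem held more Sema4d (113 CPM) than WT hippocampus (74.6). The part of that library in the value was not tested. Of 65 pairs of semaphorin receptors, 1 was higher and 4 lower in 154Q, and 0 and 2 in 154Q-AXH mice. Plxnd1 fell in cortex in both mutants (−0.54 and −0.53) and in 154Q cerebellum (−0.25), Plxna2 fell in cortex (−0.17 and −0.19) but rose in 154Q cerebellum (0.29), and Plxna3 fell in 154Q cerebellum (−0.31). The receptors of Sema7a itself, Plxnc1 and Itgb1, were not called in any region, with 154Q log2 differences of 0.04 to 0.22 and −0.07 to 0.12.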

How the data were processed

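PolyA RNA of 5 brain regions from 12 mice was sequenced. Per the labels and the study's methods, reads were trimmed (Trimmomatic 0.36) and mapped to GRCm38.p6 with GENCODE M18 by STAR 2.7.2d, and the authors deposited raw counts per gene. Counts regardless of strand were used, since 48.9 to 50.1% of reads fell on the first strand. Of all read pairs, 75.31 to 81.17% were counted. Each region was fitted with edgeR 4.0.16 (R 4.3.3; filterByExpr, TMM, quasi-likelihood, Benjamini-Hochberg, threshold 0.05), with DESeq2 1.42.0, other scaling, no filter, fewer samples and covariates as alternatives. SE was the log2 fold change over the square root of F, and 95% intervals were normal intervals on it. With so few libraries a group these are narrower than the edgeR test implies. Log2 CPM used a prior count of 2. The genes and lists were chosen with earlier results of these data known. Named genes were the 3 genes, those at the rule's edge, the 3 likest each, and up to 4 called per list with the lowest adjusted p. One gene that this rule would name is not reported here. Caln1, Pi4kb, Plxnc1, Itgb1 and Zmat5 were added outside this rule, as known partners or an overlapping gene. By their labels, same-numbered libraries come from the same mouse, though hippocampal 154Q-76 and cortical WT-221 did not match their number's other libraries. The deviations of same-numbered libraries correlated at a median r of 0.0194 (116 pairs, −0.22 to 0.325) against −0.00315 between mice. The fits were tested on simulated data.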

Additional observations from a re-analysis of the deposited data

Results flagged for a closer look

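Striatal Cabp7 in WT-221 stood at 15.9 CPM while the other 3 WT libraries lay between 13.7 and 13.8, a gap of 0.967 of the group's range, past Dixon's critical value for 4 samples. It was the only such library in 42 groups of 4 checked, where chance gives about 1 in 20 groups. All WT libraries, that one included, lay above every mutant library.

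The 154Q-AXH minus WT difference of Slc6a15 varied between the 5 regions by the test of the difference itself (edgeR quasi-likelihood F test, adjusted p = 0.00196), from 0.17 in brainstem and 0.26 in cerebellum to 0.47 in striatum, 0.61 in cortex and 0.68 in hippocampus on the log2 scale. The 154Q minus WT differences, side by side, were 0.18, 0.23, 0.67, 0.57 and 0.54. The 2 contrasts share the WT libraries.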

How the results depend on the processing

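Directions were kept in 273 of 273 refits of 154Q against WT and 273 of 273 of 154Q-AXH against WT, and in 247 of 258 of 154Q-AXH against 154Q, where values near 0 turned. Of the 3 genes, 3 were called in all 5 regions in 38 settings and 2 in 22. The count was 1 with only 2 genotypes in a fit, 1 with the number series as a covariate and 0 with WT mice of the same number series. Leaving out 1 library gave 1 to 3, with 1 without cerebellar 154Q-76 or brainstem WT-220, WT-221 or 154Q-71. The 15 gene-region pairs of 154Q against WT became 9 with WT mice of the same series (13 to 15 without 1 library). With those WT mice the calls over all genes went from 1089 to 372 in cerebellum, 117 to 4 in brainstem and 1268 to 73 in hippocampus. They went from 1047 to 1134 in striatum and from 2066 to 328 in cortex. Brainstem calls over all genes were 59 with only 2 genotypes in a fit and 19 with the series covariate. The 10 pairs called in 154Q-AXH against WT ranged from 7 to 12 (8 to 10 without 1 library), with 12 under DESeq2, which added brainstem Slc6a15 (adjusted p = 0.042) and Sema7a (0.00625). With separate WT mice for each mutant all 15 directions were kept in each, and 7 pairs were called in 154Q-AXH. Over all genes, 154Q-AXH calls then went from 462 to 2468 in cerebellum, 3 to 9 in brainstem and 279 to 321 in hippocampus. They went from 249 to 0 in striatum and from 1330 to 980 in cortex. DESeq2 called 15 rather than 7 list pairs higher in 154Q, and 8 rather than 2 higher and 26 rather than 16 lower in 154Q-AXH mice. It also called more of all genes. From cerebellum, brainstem, hippocampus and striatum to cortex, 154Q calls were 1703, 395, 2142, 1725 and 2505 rather than 1089, 117, 1268, 1047 and 2066. The 154Q-AXH calls were 1057, 77, 962, 611 and 1764 rather than 462, 3, 279, 249 and 1330. Nothing about the lists is read from the rise.

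Of 154Q-AXH minus 154Q, the number series as a covariate turned cerebellar Slc6a15 to −0.18, hippocampal Sema7a to −0.056, striatal Sema7a to 0.31 and cortical Slc6a15 to −0.19, and exchanged cortical labels turned the last to −0.00049. The covariate left Cabp7 positive in all 5 regions, at 0.13 to 0.87. Leaving out 1 library gave −0.034 to 0.018 for brainstem Slc6a15, −0.033 to 0.13 for hippocampal and −0.13 to 0.089 for striatal Sema7a. Without 1 mouse, the test across regions in 154Q-AXH gave adjusted p of 0.0107 to 0.406 for Cabp7 and 0.0178 to 0.595 for Sema7a. With the mouse as a replicate block it gave 0.141 for Cabp7, 0.000418 for Slc6a15 and 0.12 for Sema7a, and the block changed no call other than Sema7a in WT striatum against cerebellum. That pair was also lost with no filter (0.057) and without WT-70 (0.0793), WT-77 (0.438) or WT-221 (0.104), and WT Slc6a15 in hippocampus against cerebellum was lost without WT-221 (0.11). The causes were not tested. Differences under the intervals given were not detectable with 3 or 4 libraries a group.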
